A study of Mus musculus with 10 samples.

Results

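The 39 genes described here make up the machinery of DNA replication and of deoxynucleotide synthesis: factors that license origins, the replicative helicase, polymerases, the sliding clamp and its loader, enzymes that supply deoxynucleotides, and proteins that copy chromatin. They were chosen as a list of symbols by a rule that uses no measured value, though with earlier results of these data known. Each was found through probes whose RefSeq accession maps to its symbol. Probes were found for 35 of the 39, among 14478 genes tested. No probe matched Gins1, Gins2, Rfc3 or Rfc5, which are not analysed here. All 35 were above background on all 10 arrays, and none had a saturated spot.

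Colon tumors and adjacent normal colon epithelium of 3 CYP1A-humanized mice, a strain with human CYP1A genes, were compared on 10 one-colour oligonucleotide arrays to learn which genes change in the tumors. The tumor group held 7 samples that the labels give as tubular adenomas with a dominant active mutation of Ctnnb1, which encodes beta-catenin. The normal group held 3 samples of colon epithelium with wild type Ctnnb1, 1 from each mouse. Both groups came from the same animals: all were fed AIN93M diet, received PhIP, a heterocyclic amine of cooked meat, in 2 doses of 100 mg/kg by gavage at 6 weeks of age, drank 1.5% DSS (dextran sulfate sodium, which injures the colon lining) for a week, and were then kept for 8 weeks untreated. They were 16 weeks old at sampling, and the normal samples are therefore treated tissue too. Mouse 41, a male, and mouse 42, a female, each gave 3 tumors and 1 normal, and mouse 43, a male, gave 1 tumor and 1 normal. The 7 tumors thus share 3 animals. Samples were dissected under a microscope and are mixtures of cells, so fewer cells of a type and less RNA per cell cannot be told apart.

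Before a cell divides, the origin recognition complex with Cdc6 and Cdt1 loads the Mcm2 to Mcm7 helicase onto DNA, and the helicase is later switched on by Cdc45 and the GINS proteins. Polymerases then copy both strands while the Pcna clamp holds them in place, and ribonucleotide reductase provides the deoxynucleotides. In the normal colon this activity belongs to the dividing cells of the lower crypt, and many of the genes are known targets of E2F transcription factors.

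Values are log2 intensities after background correction and quantile normalization, or differences of them, and the mouse is a term in every tumor to normal comparison unless stated otherwise. A difference passed when its Benjamini-Hochberg adjusted p from limma, adjusted over all 14478 genes, was under 0.05. The number of arrays limits the precision, with a median SE of 0.12 for the difference of these genes. Between 57.7% and 66.7% of gene probes were above background on an array. Of 9 colon epithelium markers, all were above background on all arrays, 5 were lower and 1 was higher in tumors. Markers of several cell types moved with the tumor label. The 4 crypt base markers measured were all higher, with a summed level of 13.05 to 13.53 (log2) in tumors and 12.21 to 12.53 in normals. So were 6 of 6 fibroblast markers (13.93 to 15.22 in tumors, 12.72 to 13.11 in normals), 4 of 4 macrophage markers (13.03 to 13.81 and 11.31 to 11.58), 4 of 4 neutrophil markers (12.84 to 14.03 and 10.13 to 12.16) and 4 of 4 endothelial markers (10.19 to 10.78 and 9.40 to 9.99). The 4 absorptive colonocyte markers (11.18 to 14.87 in tumors, 15.40 to 15.79 in normals) and 3 goblet markers (14.32 to 15.17 and 15.46 to 15.65) were all lower, as were 2 of 3 B cell and 3 of 4 smooth muscle markers. Of 5 T cell markers 1 was higher, and of 2 germinal centre markers 1 was higher and 1 lower. Of all these markers, Slc26a3, Cxcr2, Pax5, Rgs13, Cnn1, Krt5, Krt4 and Trp63 were not above background on every array. Of the 6 squamous epithelium markers none passed, but in mouse 42 the normal, and in mouse 43 the tumor, stood apart, with mean centred levels of 2.83 and 2.39 against -0.89 to -0.21 on the other 8 arrays. A later scan session held 4 tumors, namely tumor 2 of mouse 41, tumors 1 and 2 of mouse 42 and the tumor of mouse 43, and 0 normals. All 4, and no array of the earlier session, are also marked as repeats, by a second dip or scan. Wherever a session is named here, the time of scanning and the repeat are therefore inseparable. The part of these cell types, of the 2 arrays with high squamous markers and of the session in the results was not tested beyond the values given beside them.

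Replication genes were more often higher than lower in tumors. Of the 35 measured, 20 were higher and 2 were lower, while 13 did not pass. Over all genes tested, 25.9% were higher and 23.7% were lower by the same rule. These shares also stand beside each count by role given below, where each role holds few genes. The median log2 difference was 0.36 for the 35 genes and 0.0087 for all genes. Of the 35, 28 were above 0, against 7359 of all 14478 genes tested. In this fit the changes were small. The 20 that rose did so by 1.23-fold to 1.76-fold, with a median of 1.47-fold. Of these, 8 reached 1.5-fold and 0 reached 2-fold, though 2-fold was passed in other settings given below. In 12 genes all 7 tumors lay above all 3 normals (21.4% of all genes), and in Mcm10 all tumors lay below all normals (20% of all genes). Every tumor lay above the normal of its own mouse in 20 genes (27% of all genes) and below it in Orc1 and Mcm10 (25.3% of all genes).

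**Figure D1:**
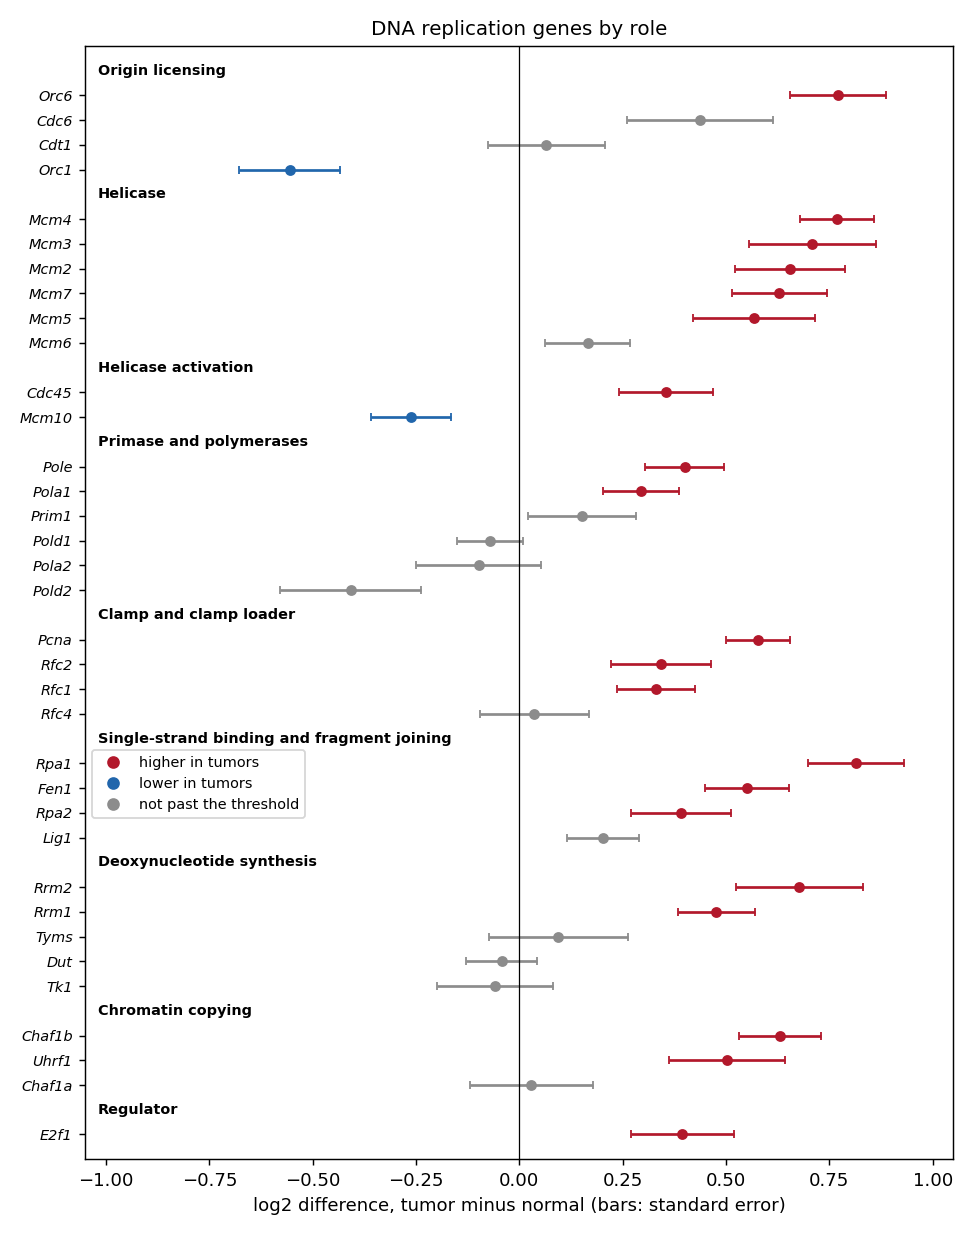
Log2 difference between tumors and normals (x axis, tumor minus normal, 7 tumors and 3 normals) for each of the 35 measured genes (y axis), grouped by role. Points are estimates from limma with the mouse as a block, bars are standard errors, and colours mark genes higher, lower or not past the threshold. The helicase genes cluster between 0.57 and 0.77 apart from Mcm6 at 0.16, and Orc1 at -0.56 and Mcm10 at -0.26 are the 2 that were lower.

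The count depended on how the spots were summarised and on which arrays were used. With the median pixel of each spot in place of the mean, 6 genes were higher (Mcm7, Orc6, Pole, Rpa1, Rrm1 and Rrm2, against 9.35% of all genes) and Orc1 was lower (9.57%). The authors' deposited values gave 5 higher, the same without Mcm7 (12.2%), and 0 lower (10.6%). The median log2 difference was then 0.20 and 0.30, with a median SE of 0.20 and 0.29 in place of 0.12. Among the 22 genes that passed with the spot mean, the spot median gave some differences that were smaller by over 1.5 times. These were Cdc45 (0.19), Pola1 (0.13), Pcna (0.30), Rfc1 (0.19), Uhrf1 (0.31) and E2f1 (0.08). Larger by as much were Pole (0.61), Rpa2 (0.62), Fen1 (1.07) and Rrm1 (0.85). Some genes that had not passed moved by as much too, among them Cdc6 (smaller, 0.14) and Prim1 (larger, 0.30). Of the same 22, Pcna (0.25) and E2f1 (0.06) were smaller among the deposited values. There, Mcm10 (-0.40), Pole (0.89), Rfc2 (0.60), Rpa2 (0.77), Fen1 (1.26) and Rrm1 (1.09) were larger in size. Fen1 with the spot median, and Fen1, Rrm1 and Orc6 (1.06) among the deposited values, thus exceeded 2-fold. With no further background correction Pola1 (0.73) and Orc1 (-0.87) were larger in size by over 1.5 times. Within the earlier scan session 14 were higher, 13 of them among the 20, and 0 lower (11.3% and 11% of all genes). With the session as a further term 19 were higher, 17 of them among the 20, and Orc1 was lower (18.6% and 17.9%). With 1 averaged tumor value for each animal, which makes the 3 animals the replicates, 16 were higher and 1 was lower (18.9% and 17.1%). Without mouse 41, 9 were higher and 2 lower (21.4% and 18.8% of all genes), and without its normal alone 13 and 1 (23.2% and 20.5%). Without mouse 42, 17 were higher and 0 lower (14.2% and 13.4%), and without mouse 43, 14 and 1 (22.0% and 22.0%). With the 2 arrays of high squamous markers left out, and no term for the mouse, 15 were higher and 0 lower (20.9% and 19.6% of all genes). Orc6, Rpa1 and Rrm1 passed in all 28 alternative settings, and none of the 22 genes that passed changed sign in any of the 28.

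**Figure D2:**
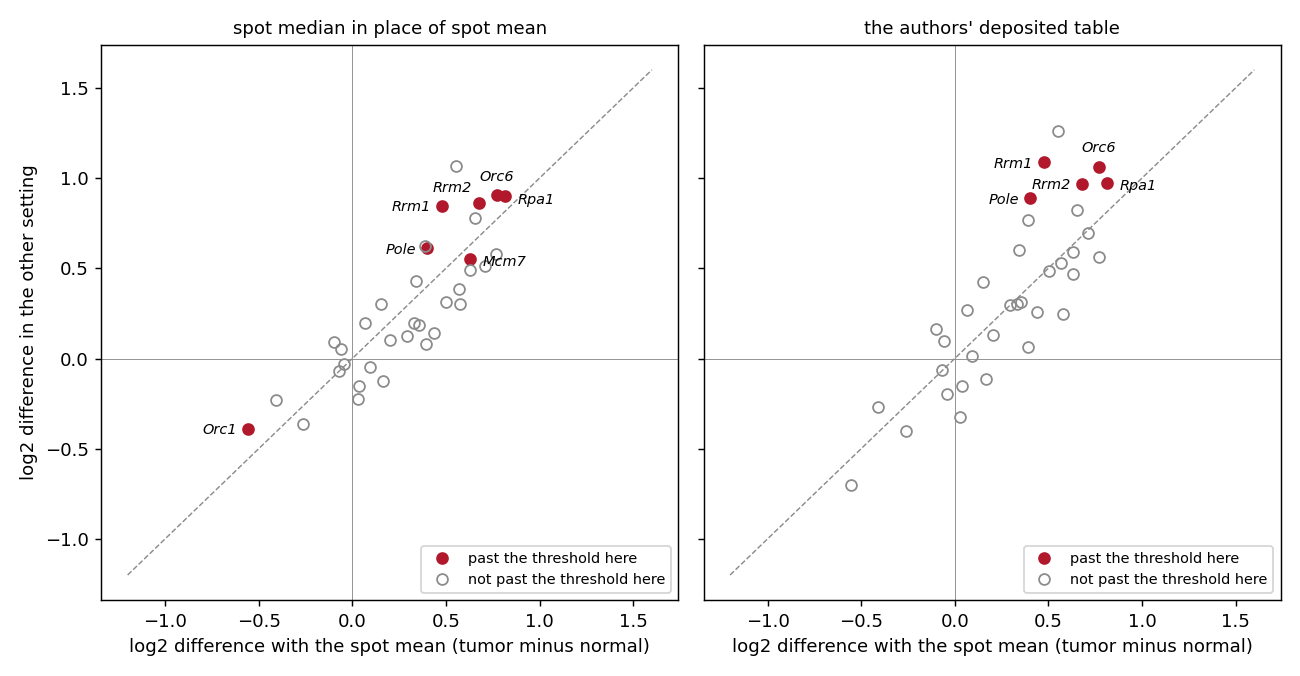
Log2 difference between tumors and normals for the 35 genes with the spot mean (x axis) against the same difference with the spot median (left panel, y axis) and in the authors' deposited table (right panel, y axis). Filled red points passed the threshold in the setting on the y axis and open points did not, and the dashed line marks equal values. Most points lie in the upper right part of both panels, while 6 higher genes and the lower Orc1 pass on the left and 5 higher genes pass on the right.

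Of the 4 origin licensing factors of the list, Orc6 was higher and Orc1 was lower (25% each, against 25.9% and 23.7% of all genes). Orc6, a subunit of the complex, was measured at 9.96, 10.21 and 10.58 (lowest, median and highest of 7 tumors) and at 9.37, 9.39 and 9.64 in the normals of mice 41, 42 and 43. All tumors lay above all normals. The log2 difference was 0.77 ± 0.12 (SE, 7 tumors and 3 normals, limma adjusted p = 0.00063), or 1.71-fold higher. Orc1, the subunit whose ATPase activity drives helicase loading, was measured at 6.88, 7.19 and 7.63 in tumors and at 7.77, 7.61 and 7.64 in normals. Each tumor lay below the normal of its own mouse, although tumor 3 of mouse 41 reached into the range of the normals. It fell by 0.56 ± 0.12 on the log2 scale (limma adjusted p = 0.00465). Orc1 did not pass without mouse 42 (log2 difference -0.52), within the earlier session (-0.35), in the deposited table (-0.70) or with the 2 arrays of high squamous markers left out (-0.52).

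The loading factors Cdc6 and Cdt1 did not pass. Cdc6 stood at 7.85, 8.44 and 8.61 in tumors and at 7.77, 7.72 and 8.28 in normals, and Cdt1 at 9.95, 10.38 and 10.85 in tumors and at 10.26, 10.12 and 10.44 in normals. The groups overlapped in both, but Cdc6 lay above its own normal in 7 of 7 tumors and Cdt1 in 4 of 7. Cdc6 had a log2 difference of 0.44 ± 0.18 (limma adjusted p = 0.0657) and Cdt1 of 0.07 ± 0.14 (limma adjusted p = 0.727). Cdc6 passed within the earlier session (0.81) and with the session as a further term (0.77), and also without tumor 1 (0.49) or tumor 3 (0.35) of mouse 42, with median scaling (0.63) and with the mean of its probes (0.35). Of its 2 other probes, both dimmer, 1 passed at 0.42 ± 0.08 (limma adjusted p = 0.00257 over all probes) and 1 did not, at 0.19 ± 0.11. With the spot median Cdc6 stood at 0.14 and did not pass.

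Of the 6 subunits of the helicase, 5 were higher, and in those 5 every tumor lay above every normal. Mcm4 was measured at 11.13, 11.40 and 11.53 in tumors and at 10.63, 10.46 and 10.86 in normals, a difference of 0.77 ± 0.09 (limma adjusted p = 0.000179). Mcm3 was measured at 9.12, 9.66 and 9.94 in tumors and at 8.87, 9.02 and 9.03 in normals, a difference of 0.71 ± 0.15 (limma adjusted p = 0.00456). In Mcm3 the lowest tumor, tumor 2 of mouse 42, lay close to the highest normal, whereas in Mcm4 the groups were well apart. Mcm2 was measured at 9.69, 9.97 and 10.26 in tumors and at 9.53, 9.24 and 9.37 in normals (difference 0.65 ± 0.13, limma adjusted p = 0.00312). Mcm7 stood at 10.01, 10.35 and 10.63 in tumors and at 9.74, 9.67 and 9.92 in normals (difference 0.63 ± 0.12, limma adjusted p = 0.00185). Mcm5 stood at 10.26, 10.68 and 10.91 in tumors and at 10.02, 10.17 and 10.08 in normals (difference 0.57 ± 0.15, limma adjusted p = 0.011). These 3 subunits rose by 1.57-fold, 1.55-fold and 1.48-fold.

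Mcm6, the sixth subunit of the ring, was measured at 10.98, 11.28 and 11.46 in tumors and at 11.15, 11.05 and 11.03 in normals. The groups overlapped, and 5 of 7 tumors lay above their own normal. Its difference of 0.16 ± 0.10 did not pass (limma adjusted p = 0.21). The value is that of the brightest of 3 probes for Mcm6, and the other 2, which were dimmer, did pass with differences of 0.33 ± 0.09 and 0.41 ± 0.14 (limma adjusted p = 0.018 and 0.041 over all probes). With the mean of the 3 probes Mcm6 passed at 0.30. A second probe for Mcm4 (0.53 ± 0.15) and for Mcm7 (0.45 ± 0.11) also passed. Mcm3 did not pass without mouse 41 (0.70), and Mcm5 did not pass without mouse 41 or its normal alone (0.53 each). Within the earlier session, where fewer arrays were compared, Mcm2 (0.60) and Mcm7 (0.66) kept their size but missed the threshold. With the spot median Mcm7 (0.55) passed, while Mcm2 (0.78), Mcm3 (0.51), Mcm4 (0.58) and Mcm5 (0.38) did not. In the deposited table none of these 5 passed, with differences from 0.53 for Mcm5 to 0.82 for Mcm2.

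The promoters of 4 of these genes are shown for their E2F motifs, since E2F factors are known regulators of such genes. The sequences are RefSeq's for GRCm38.p6 and give the 250 bases before the start of the gene, 5' to 3' on the strand of the gene, with matches to TTTCCCGC, TTTCGCGC, TTTGCCGC or TTTGGCGC on either strand in capitals, where overlapping matches merge into 1 run. Mcm5 (chr8:75109259-75109508, plus strand) and Mcm7 (chr5:138171884-138172133, minus strand) were higher in tumors, Mcm6 (chr1:128359706-128359955, minus strand) did not pass, and Orc1 (chr4:108579204-108579453, plus strand) was lower.
Mcm5: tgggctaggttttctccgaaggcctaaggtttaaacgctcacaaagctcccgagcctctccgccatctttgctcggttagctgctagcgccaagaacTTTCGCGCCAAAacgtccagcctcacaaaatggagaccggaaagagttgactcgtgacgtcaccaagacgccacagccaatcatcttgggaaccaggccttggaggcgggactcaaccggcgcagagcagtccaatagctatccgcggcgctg
Mcm7: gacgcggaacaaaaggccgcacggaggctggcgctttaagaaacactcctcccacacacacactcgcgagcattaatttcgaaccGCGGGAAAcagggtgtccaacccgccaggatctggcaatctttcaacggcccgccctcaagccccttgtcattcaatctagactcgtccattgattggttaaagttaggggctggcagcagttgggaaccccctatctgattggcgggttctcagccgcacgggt
Mcm6: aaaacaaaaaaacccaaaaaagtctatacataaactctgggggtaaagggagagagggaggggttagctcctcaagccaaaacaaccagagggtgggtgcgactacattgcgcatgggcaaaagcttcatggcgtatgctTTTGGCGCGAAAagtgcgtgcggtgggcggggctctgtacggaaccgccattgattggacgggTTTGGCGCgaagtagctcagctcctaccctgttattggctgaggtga
Orc1: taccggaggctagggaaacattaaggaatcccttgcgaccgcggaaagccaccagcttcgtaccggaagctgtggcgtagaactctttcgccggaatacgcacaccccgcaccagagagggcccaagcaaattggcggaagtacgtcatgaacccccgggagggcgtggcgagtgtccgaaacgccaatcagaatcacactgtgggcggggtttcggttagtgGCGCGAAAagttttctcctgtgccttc
The 4 windows were chosen for display and all hold a match, unlike most windows of the list. They therefore say nothing on whether a match goes with the direction of a gene. In windows that also take in 50 bases after the start, a match was present in 12 of 34 genes of the list that have a window (35.3%) and in 704 of 27025 genes of the RefSeq table (2.60%). Among the measured genes it was present in 5 of 17 that were higher, 1 of 2 that were lower and 5 of 13 that did not pass. A match describes letters in the window and is not a measurement of binding.

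**Figure D3:**
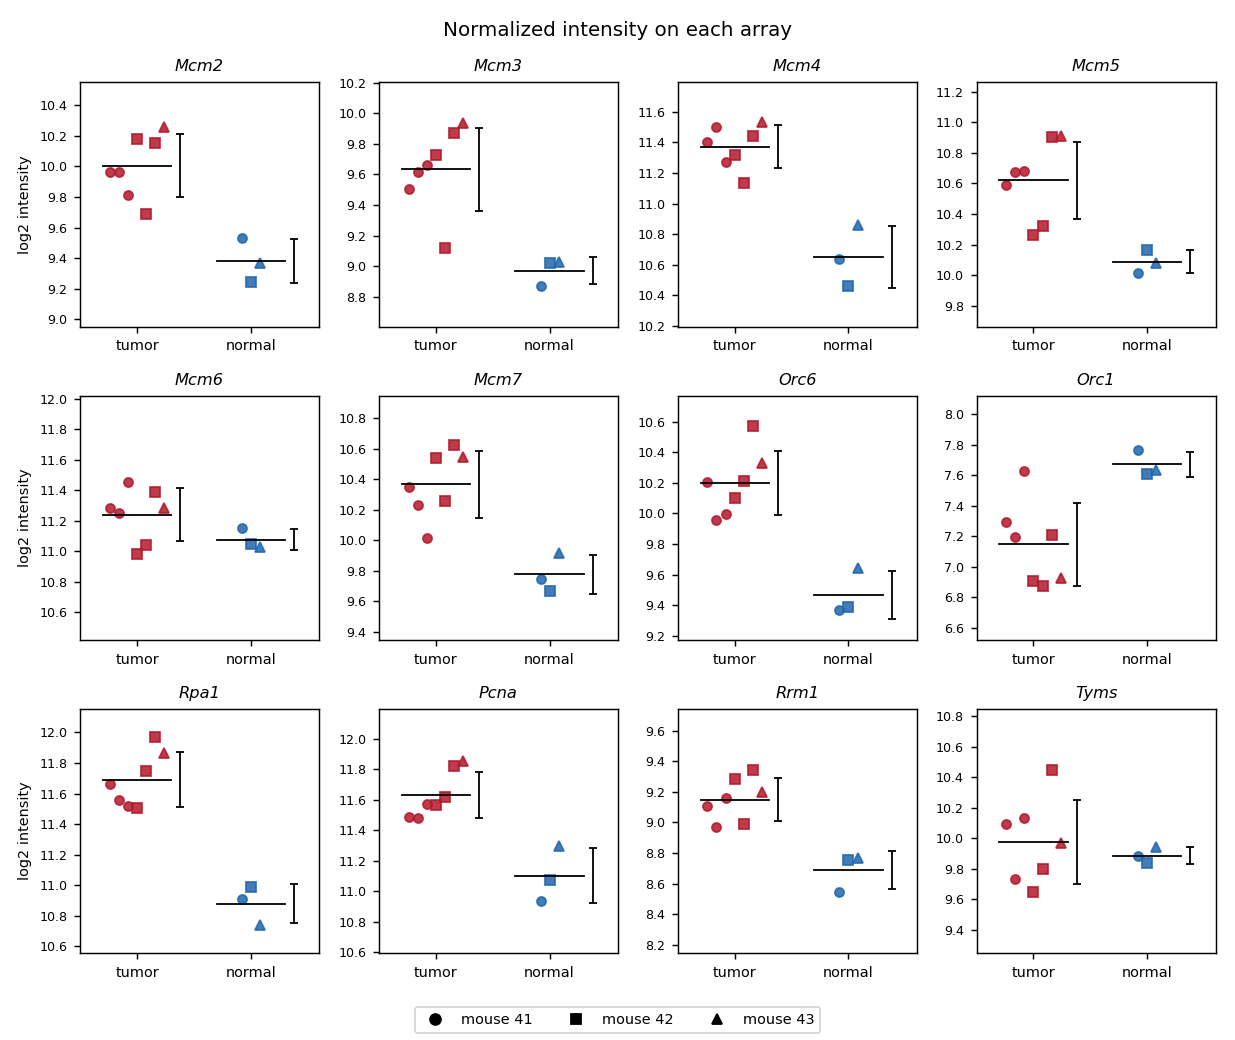
Log2 intensity (y axis) on each array for 12 genes, with the 7 tumors on the left and the 3 normals on the right of each panel and the mouse given by the symbol. Horizontal lines are group means and bars are SDs. In Mcm2, Mcm3, Mcm4, Mcm5, Mcm7, Orc6, Rpa1, Pcna and Rrm1 no tumor reaches down to a normal, whereas Mcm6, Orc1 and Tyms overlap.

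Of the helicase activators of the list, Cdc45 was higher and Mcm10 was lower, by small amounts. Cdc45, which travels with the helicase, was measured at 7.70, 7.89 and 8.20 in tumors and at 7.45, 7.60 and 7.88 in normals. Each tumor lay above its own normal although the groups overlapped, and the difference was 0.36 ± 0.11 (limma adjusted p = 0.0272). Mcm10, which helps the helicase start, was measured at 8.75, 8.92 and 9.12 in tumors and at 9.15, 9.20 and 9.24 in normals. All tumors lay below all normals, and Mcm10 fell by 0.26 ± 0.10 on the log2 scale (limma adjusted p = 0.047). The Mcm10 call was lost in 22 of the 28 alternatives, with differences from -0.42 to -0.10. Among these were the fits without any 1 normal (-0.29 without that of mouse 41, -0.22 of mouse 42 and -0.28 of mouse 43) and without tumor 1 (-0.26) or 2 (-0.24) of mouse 41, tumor 1 (-0.25) or 2 (-0.24) of mouse 42 or the tumor of mouse 43 (-0.28). Cdc45 missed the threshold when any 1 normal was left out (0.29 for mouse 41, 0.39 for mouse 42 and 0.38 for mouse 43, where leaving out its tumor gives the same fit), and its other probe, at 0.25 ± 0.10, did not pass.

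Of the 6 primase and polymerase subunits, 2 catalytic ones were higher (33.3%, against 25.9% of all genes) and none was lower (against 23.7%). Pole, the catalytic subunit of polymerase epsilon, was measured at 8.23, 8.39 and 8.69 in tumors and at 7.91, 8.23 and 7.99 in normals. Each tumor lay above its own normal and, narrowly, above all 3, and the difference was 0.40 ± 0.10 (limma adjusted p = 0.00707). Pola1, the catalytic subunit of polymerase alpha, was measured at 6.55, 6.74 and 6.99 in tumors and at 6.36, 6.59 and 6.41 in normals, with overlap and a difference of 0.29 ± 0.09 (limma adjusted p = 0.0237). Pole was larger with the spot median (0.61) and in the deposited table (0.89), and did not pass without mouse 41 (0.40) or within the earlier session (0.43). Pola1 lost its call in 14 of the 28 alternatives. It depended on each normal (0.27, 0.33 and 0.28 when that of mouse 41, 42 or 43 was left out). It also missed the threshold with the tumors averaged within each mouse (0.30) and with median scaling (0.24). The same held within the earlier session (0.33), with the session as a further term (0.32), with the spot median (0.13) and in the deposited table (0.30).

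The other subunits gave differences on both sides of 0 and did not pass: Prim1, the catalytic subunit of primase, at 0.15 ± 0.13, Pold1, the catalytic subunit of polymerase delta, at -0.07 ± 0.08, its partner Pold2 at -0.41 ± 0.17, and Pola2, a partner of Pola1, at -0.10 ± 0.15 (limma adjusted p = 0.363, 0.494, 0.0748 and 0.617). Pold2 averaged 9.41 ± 0.30 in tumors and 9.85 ± 0.08 in normals (SD, 7 tumors and 3 normals). It lay below its own normal in 6 of 7 tumors, and it passed as lower without tumor 3 of mouse 41 (-0.48), the tumor that lay above its normal, and without mouse 41 (-0.50).

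The sliding clamp was higher in every tumor. Pcna, the ring that tethers polymerases to DNA, was measured at 11.48, 11.57 and 11.85 in tumors and at 10.94, 11.07 and 11.29 in normals. All tumors lay above all normals, and the difference was 0.58 ± 0.08 (limma adjusted p = 0.00033), or 1.49-fold. It was 0.30 with the spot median and 0.25 in the deposited table, and passed in neither. Of the clamp loader subunits 2 rose. Rfc2 was measured at 10.08, 10.55 and 10.64 in tumors and at 10.03, 10.28 and 10.04 in normals (0.34 ± 0.12, limma adjusted p = 0.042). Rfc1, the large subunit of the loader, was measured at 8.89, 9.03 and 9.18 in tumors and at 8.54, 8.93 and 8.70 in normals (0.33 ± 0.09, limma adjusted p = 0.0165). Both overlapped between the groups, and Rfc1 lay below its own normal in tumor 2 of mouse 42. Rfc4, a small subunit, stood at 9.25, 9.52 and 9.89 in tumors and at 9.61, 9.61 and 9.55 in normals and did not pass (0.04 ± 0.13, limma adjusted p = 0.838). Rfc2 lost its call in 21 of the 28 alternatives, including the fits without any 1 normal (0.39 without that of mouse 41, 0.40 of mouse 42 and 0.26 of mouse 43), without tumor 1 (0.36) or 2 (0.30) of mouse 41 and without tumor 1 (0.33) or 3 (0.34) of mouse 42. Within the earlier session it was 0.19 and with the session as a further term 0.21. A second, dimmer Rfc2 probe passed at 0.38 ± 0.11. Rfc1 missed the threshold when the normal of mouse 41 (0.25) or mouse 43 (0.30) was left out.

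The proteins that cover and join new strands included the largest difference of the 35 genes in the main fit, that of Rpa1. This rank did not hold in every setting. Fen1 was largest with the spot median (1.07) and in the deposited table (1.26), and Orc6 with median scaling (0.91). Rpa1, the large subunit of the complex that coats unpaired DNA, was measured at 11.51, 11.66 and 11.97 in tumors and at 10.91, 10.99 and 10.74 in normals. The groups were clearly apart, with a difference of 0.81 ± 0.12 (limma adjusted p = 0.000486), or 1.76-fold. Fen1, the nuclease that trims Okazaki fragments, was measured at 9.88, 10.11 and 10.53 in tumors and at 9.62, 9.64 and 9.66 in normals. All tumors lay above all normals, and the difference was 0.55 ± 0.10 (limma adjusted p = 0.00185). Rpa2, another subunit of the same complex as Rpa1, was measured at 9.53, 9.74 and 10.05 in tumors and at 9.21, 9.46 and 9.53 in normals, a difference of 0.39 ± 0.12 (limma adjusted p = 0.0238). The Rpa2 groups touched, its second probe did not pass (0.18 ± 0.15), and it missed the threshold when the normal of mouse 41 (0.35), mouse 42 (0.46) or mouse 43 (0.37) was left out. Lig1, the ligase that seals the fragments, averaged 10.11 ± 0.16 in tumors and 9.93 ± 0.09 in normals (SD). It lay above its own normal in 7 of 7 tumors but did not pass at 0.20 ± 0.09 (limma adjusted p = 0.0818), except without tumor 2 of mouse 42 (0.23) and with median scaling (0.34).

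Among the enzymes of deoxynucleotide supply, both subunits of ribonucleotide reductase rose and the 3 enzymes of thymidylate metabolism did not pass. Rrm1, the large subunit, was measured at 8.97, 9.16 and 9.34 in tumors and at 8.55, 8.76 and 8.76 in normals. All tumors lay above all normals, and the difference was 0.48 ± 0.09 (limma adjusted p = 0.00254), or 1.39-fold. Rrm2, the small subunit, known for its rise in S phase, was measured at 9.51, 9.92 and 10.40 in tumors and at 9.15, 9.52 and 9.29 in normals, a difference of 0.68 ± 0.15 (limma adjusted p = 0.00539). It lay above its own normal in 6 of 7 tumors and just below it in tumor 2 of mouse 42. Of its 4 probes, 3 passed with differences from 0.68 to 0.79, and the dimmest stood at -0.09 ± 0.11. Rrm1 was larger with the spot median (0.85) and in the deposited table (1.09), and Rrm2 did not pass without mouse 41 (0.61).

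Tyms, which makes thymidylate, stood at 9.65, 9.97 and 10.44 in tumors and at 9.88, 9.83 and 9.94 in normals (0.09 ± 0.17, limma adjusted p = 0.671). The tumors of Tyms lay on both sides of the normals, 4 of 7 above their own. Tk1, which salvages thymidine, had a difference of -0.06 ± 0.14, and Dut, which clears dUTP, of -0.04 ± 0.09 (limma adjusted p = 0.751 and 0.707). The 4 probes of Tyms and the 3 of Tk1 did not pass, with differences from -0.08 to 0.17 and from -0.32 to -0.06. With the scan session as a further term Tyms passed at 0.41. These values do not show that the 3 enzymes were alike in tumors and normals.

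Of the chromatin copying proteins, Chaf1b and Uhrf1 rose. Chaf1b, a subunit of the assembly factor that places histones on new DNA, was measured at 10.02, 10.31 and 10.53 in tumors and at 9.53, 9.71 and 9.81 in normals. All tumors lay above all normals, with a difference of 0.63 ± 0.10 (limma adjusted p = 0.000817). Its partner Chaf1a stood at 7.75, 8.17 and 8.71 in tumors and at 8.17, 8.08 and 8.51 in normals, with full overlap and a difference of 0.03 ± 0.15 (limma adjusted p = 0.886). Uhrf1, which brings the maintenance DNA methyltransferase to newly copied DNA, was measured at 9.35, 9.71 and 10.05 in tumors and at 9.04, 9.28 and 9.45 in normals. Each tumor lay above its own normal, with a difference of 0.50 ± 0.14 (limma adjusted p = 0.0151). The call was lost when mouse 41 or its normal alone (0.47 each) or the 2 arrays of high squamous markers (0.41) were left out. It was also lost with the spot median (0.31) and in the deposited table (0.48). A second, dimmer probe for Uhrf1 did not pass (0.36 ± 0.14, limma adjusted p = 0.0559 over all probes).

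E2f1, a transcription factor that activates many replication genes, was measured at 7.54, 7.86 and 8.40 in tumors and at 7.51, 7.54 and 7.65 in normals. Tumor 2 of mouse 42 was level with its own normal, the tumor of mouse 43 was the highest, and the groups overlapped. The difference was 0.39 ± 0.12 (limma adjusted p = 0.0262). It was 0.08 with the spot median and 0.06 in the deposited table, and neither passed. It also missed the threshold when the normal of mouse 42 (0.47) or mouse 43 (0.28) was left out, with no term for the mouse (0.32), and with the 2 arrays of high squamous markers left out as well (0.22). The same held within the earlier session (0.34), with the session as a further term (0.41) and with tumors averaged within each mouse (0.43).

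Tumors differed in how far the genes as a group lay from the normal of the same mouse. The median difference over the 35 genes was 0.40, 0.42 and 0.43 for tumors 1, 2 and 3 of mouse 41, 0.16, 0.07 and 0.44 for tumors 1, 2 and 3 of mouse 42, and 0.42 for the tumor of mouse 43. In the same order, 27, 28, 31, 24, 21, 29 and 27 of the 35 genes lay above the own normal. Over all genes between 48.1% and 53.1% did so. Tumors 1 and 2 of mouse 42 stood lowest, and both share their normal with tumor 3, which stood highest. That normal is one of the 2 arrays with high squamous markers. Tumors 1 and 2 of mouse 42 were in the later scan session, whose arrays were repeats, while tumor 3 was in the earlier one. Tumor 2 of mouse 41, also in the later session, lay between the other tumors of its mouse.

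**Figure D4:**
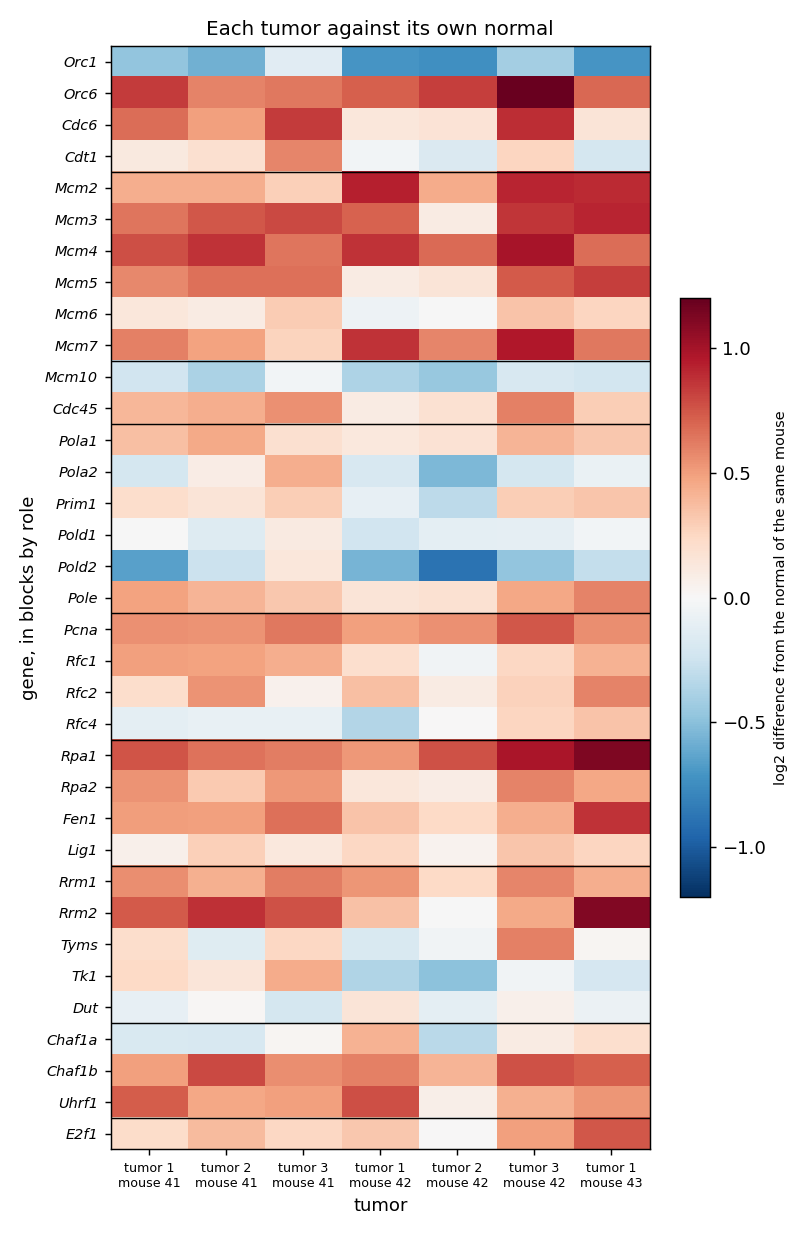
Log2 difference of each tumor (x axis, 7 tumors) from the normal of the same mouse for the 35 genes (y axis, in blocks by role), red for higher and blue for lower. Each column rests on 1 tumor array and 1 normal array. Rpa1, Orc6, Pcna and Mcm4 are red in all 7 columns, Orc1 is blue in all 7, and tumor 2 of mouse 42 is the palest column, with 21 of 35 genes above its normal.

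The mice with 3 tumors each were compared directly. Between the tumors of mouse 42 and those of mouse 41, 0 of the 35 genes passed in limma, 2 had an unadjusted p under 0.05, and the lowest adjusted p was 0.247. Over all genes 0.221% passed and 17.3% had an unadjusted p under 0.05. The differences ran from -0.42 for Cdt1 to 0.28 for Mcm7 (median SE 0.14), and 16 of 35 were lower in mouse 42. Cdt1 at -0.42 ± 0.16 and Orc1 at -0.37 ± 0.15 were the 2 with an unadjusted p under 0.05. The tumor minus normal difference of mouse 42 less that of mouse 41 passed for 0 genes in limma, with 0 at an unadjusted p under 0.05 and a lowest adjusted p of 0.730, against 0.401% and 7.14% of all genes. Those differences ran from -0.57 to 0.38 with a median SE of 0.28, which is not small beside the median tumor minus normal difference of 0.36. Mouse 42 was female and mouse 41 male, so that sex and animal cannot be told apart.

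Of 73 further replication and nucleotide genes, 64 were measured, 20 were higher (31.2%, against 25.9% of all genes) and 9 were lower in tumors (14.1%, against 23.7%). The median difference was 0.16, and 46 of the 64 lay above 0, against 7359 of all 14478 genes tested. The strongest by p among those that rose was Ctps, which makes CTP, at 10.56, 10.72 and 11.04 in tumors and 9.91, 9.26 and 9.80 in normals. All tumors lay above all normals, and at 1.14 ± 0.14 (limma adjusted p = 0.000257), or 2.20-fold, it exceeded each of the 35. Dctd, which turns dCMP to dUMP (0.57 ± 0.09, limma adjusted p = 0.000697), the histone chaperone Rbbp4 (0.59 ± 0.11, limma adjusted p = 0.00226) and the nucleoside diphosphate kinase Nme1 (0.61 ± 0.12, limma adjusted p = 0.00253) followed. The lower genes included Shmt1, a cytosolic enzyme of the folate cycle, measured at 8.36, 8.70 and 8.85 in tumors and at 9.60, 9.76 and 9.64 in normals. All tumors lay below all normals, and Shmt1 fell by 0.98 ± 0.11 on the log2 scale (limma adjusted p = 0.000167). Orc3, a further origin recognition subunit, fell by 0.43 ± 0.07, E2f4, an E2F member known as a repressor, by 0.39 ± 0.07, and Rb1, the retinoblastoma protein that restrains E2F, by 0.46 ± 0.09 (limma adjusted p = 0.00109, 0.00178 and 0.00215).

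By role, 1 of 12 further licensing and firing factors was higher, the helicase activator Gins4 (0.28 ± 0.09, all tumors above all normals), and 2 were lower. Of the 12, Orc2, Orc4 and Orc5 of the origin recognition complex (0.16, 0.12 and 0.16) and Gins3 (0.15) did not pass. These genes were named after their values were seen. Over all genes 25.9% were higher and 23.7% lower, the shares to set beside these counts by role. In the other roles, 4 of 12 polymerase and fork factors were higher (33.3%) and none lower. Of 12 enzymes of deoxynucleotides and folate 5 were higher and 3 lower, of 14 enzymes of purine and pyrimidine synthesis 6 were higher and 1 lower, and of 5 chromatin copying factors 3 were higher. Among 9 E2F family members and partners 1 was higher and 3 were lower, with a median of -0.25. With the spot median 3 of the 64 were higher and 0 lower, against 9.35% and 9.57% of all genes. From the authors' deposited values 2 were higher and 0 lower, against 12.2% and 10.6% of all genes.

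Of 5 general markers of dividing cells that were measured, 1 was higher (20%, against 25.9% of all genes) and none was lower (against 23.7%). Top2a, the topoisomerase of dividing cells, was higher and stood at 10.24, 10.46 and 10.96 in tumors and at 9.87, 10.46 and 9.96 in normals. The groups overlapped, because the normal of mouse 42 was level with the median tumor, and the difference was 0.40 ± 0.13 (limma adjusted p = 0.0321). The mitotic kinase Cdk1 (0.27 ± 0.15), the cyclins Ccna2 (-0.18 ± 0.16) and Ccnb1 (0.02 ± 0.10), and Birc5, a protein of the dividing spindle (0.03 ± 0.18), did not pass (limma adjusted p = 0.175, 0.367, 0.872 and 0.917). Their median difference was 0.03. Mki67 was not analysed here. The normal of mouse 42 had the highest level of these markers among the normals, 0.20 as a mean centred log2 level against -0.31 and -0.17 in the normals of mice 41 and 43, and -0.09 to 0.38 in tumors.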

How the data were processed

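RNA of 7 tumors and 3 normals was amplified to biotin-labelled cRNA and stained with Alexa-647, per the labels. The deposited scanner files hold linear spot intensity values of 38880 spots, not normalized, read with GenePix Pro 4.1.1.4 at 635 nm, per the file headers. The authors' deposited table of 19327 probes holds linear intensity values, each equal to the spot median less its background after scaling by 1 factor for the array (to 0.1% in 99.6% of probes or more, with column medians of 110.2 to 118.9), and was used as an alternative. Other upstream steps and the genome build are not given in the sources used here.

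Normexp with an offset of 50 was applied to spot means and local background medians. Of 34312 gene probes, 43 marked bad were dropped, and the rest were quantile normalized. Of the 34312, 22987 matched a single symbol in a RefSeq table of GRCm38.p6, used only for names and promoters, and 5232 kept an accession. The other 6093, without an accession that gave a single name, were not tested. A probe was above background where its net signal passed the 99th percentile of 432 null spots, and 14478 genes above it on at least 3 arrays were tested, each by its brightest probe. Tumors and normals were compared with limma 3.58.1 (R 4.3.3) and the animal, known from the labels, entered as a block. Deviations of normals and tumors of the same mouse correlated at 0.11, -0.067 and -0.078. Mice were compared with a mean per mouse and tissue. The fit was tested on simulated data. Alternatives changed the background correction, spot summary, normalization, filter, probe choice, block, scan session and arrays used. The numbering of tumors is that of the labels. Genes with values for each group are those past the threshold, those a role turns on, and up to 4 per direction of the further genes by lowest p. The genes and lists were chosen with earlier results of these data known. Where nothing says that tumors of a mouse arose apart, p-values measure the spread between these samples.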

Additional observations from a re-analysis of the deposited data

How the results depend on the processing

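Across 28 alternatives, 13 of which left out an array or a mouse, the 35 genes gave 980 differences: 776 kept direction and side of the threshold, 147 kept direction but no longer passed, 14 newly passed and 43 changed sign. The sign changed in 8 genes that had not passed, and the causes were not tested. These were, with the spot median, Mcm6 (-0.13), Pola2 (0.093), Rfc4 (-0.15), Tyms (-0.045), Tk1 (0.053) and Chaf1a (-0.22). In the deposited table as deposited they were Mcm6 (-0.11), Pola2 (0.17), Rfc4 (-0.15), Tk1 (0.10) and Chaf1a (-0.33), and quantile normalized, Mcm6 (-0.14), Pola2 (0.10), Rfc4 (-0.18), Tyms (-0.051), Tk1 (0.061) and Chaf1a (-0.36). Within the earlier session they were Tk1 (0.18) and Chaf1a (-0.0046), with the session as a term Pold1 (0.0098) and Tk1 (0.16), with median scaling Pola2 (0.093), Pold1 (0.087) and Tk1 (0.093), with the mouse as a random block Chaf1a (-0.053), with no replicate block Chaf1a (-0.069), and without the 2 squamous arrays Cdt1 (-0.00077), Rfc4 (-0.037) and Chaf1a (-0.25). On leaving out an array or mouse, Cdt1 reached -0.075 (without mouse 41 or its normal) and Pola2 0.031 (without mouse 42 or its normal), Rfc4 ran from -0.065 (without mouse 43) to 0.12, Tk1 from -0.26 to 0.084 (without mouse 42 or its normal), and Chaf1a from -0.034 (without tumor 1 of mouse 42) to 0.12. The count of higher genes, 20, was 6 with the spot median and 5 in both forms of the deposited table, where the median SE was larger, and 9 to 21 on leaving out an array or mouse. The count of lower genes, 2, was 0 from both forms of the authors' values, within the earlier session and without the squamous arrays, 1 with genes above background on all 10 arrays, median scaling, no further background correction, offset 16, the session as a term, the spot median and tumors averaged within each mouse, and 0 to 3 on leaving out an array or mouse. With no replicate block 17 genes were higher and 3 lower, and with 3 averaged pairs 16 and 1. The block for the mouse, whose pairing comes from the animals, changed the calls of Cdc45, Rfc2, E2f1 and Pold2. Of the further 64 genes, 20 were higher, beside 25.9% of all genes, and brackets give the share of all genes in each alternative. The count was 2 in both forms of the deposited table (12.2% and 11.7%) and 3 with the spot median (9.35%). It was 8 within the earlier session (11.3%), 13 with the session as a term (18.6%) and with averaged tumors (18.9%), and 11 without the squamous arrays (20.9%). On leaving out an array or mouse it was 10 to 20 (14.2% to 26.8%). The 9 lower, beside 23.7% of all genes, were 0 in both forms of the deposited table (10.6% and 10.5%) and with the spot median (9.57%). They were 3 within the earlier session (11%), and 5 with median scaling (18.5%) and without the squamous arrays (19.6%). On leaving out an array or mouse they were 5 to 11 (13.4% to 24.0%). Both comparisons of mouse 42 with mouse 41 gave 0 in each alternative run for them. Leaving out the normal or the tumor of mouse 43 gives the same fit as leaving out the mouse. All 35 genes were above background on all 10 arrays, and the number of arrays limits the precision.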
